A study of Mus musculus with 6 samples.

Results

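The forkhead genes encode a family of transcription factors that share a winged-helix DNA-binding domain and are grouped by sequence into lettered classes. The members examined here are all symbols of the count table made of Fox, a class letter from a to s and a number. The rule found 45 genes among the 53819 symbols of the table from their names alone. The opposite-strand transcripts Foxd2os, Foxl2os and Foxo6os and the oxidoreductases Foxred1 and Foxred2 do not match it.

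The study sequenced polyadenylated RNA of 3D gastruloids, aggregates of the mouse embryonic stem cell line E14 that can break symmetry and form a posterior pole. The design asks how budesonide changes their transcription. Aggregates given budesonide, a synthetic glucocorticoid, for 80 h made up 3 libraries and untreated aggregates another 3. All 6 come from the same cell line. The labels do not say whether untreated aggregates received a vehicle, were collected at the same time or came from separate cultures. If replicates are not separate cultures, the p-values reflect technical spread among these libraries and no more. The libraries held 5666168 to 7476862 counted reads. Pluripotent cells, the labelled starting type, were visible in both groups. All 9 pluripotency markers were tested and 8 rose with budesonide, beside 15.2% of all genes tested. The markers summed to 1991 to 2208 CPM in budesonide and 1343 to 1389 CPM in untreated libraries. CPM (counts scaled to a common library size with TMM factors) is the unit of level used throughout.

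Forkhead factors act at several steps of early development. FOXA2 opens chromatin for endoderm and for the node and notochord, FOXH1 carries the SMAD complexes activated by NODAL to DNA, and FOXD3 maintains the pluripotent epiblast and later the neural crest. FOXO factors are held in the cytoplasm when the kinase AKT phosphorylates them, FOXM1 drives genes of the G2 and M phases, and FOXK and FOXP proteins act mainly as repressors.

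Promoters of 3 genes are shown first because they belong to genes with clear changes in either direction: Foxa2, which fell, and Foxd3 and Foxo3, which rose. They come from RefSeq on the build GRCm38.p6 and run 5′ to 3′ on the gene's strand from 250 bases before the annotated start to 30 bases after it. For Foxa2, which has several annotated starts, the window shown is the one that held a motif. Capitals mark the match to a motif searched.
Foxa2, chr2:148045435-148045714, minus strand: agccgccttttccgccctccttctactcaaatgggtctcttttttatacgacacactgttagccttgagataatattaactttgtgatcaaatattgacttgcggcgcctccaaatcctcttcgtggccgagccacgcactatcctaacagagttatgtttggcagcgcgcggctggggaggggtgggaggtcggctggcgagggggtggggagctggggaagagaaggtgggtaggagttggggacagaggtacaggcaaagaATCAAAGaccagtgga
Foxd3, chr4:99656049-99656328, plus strand: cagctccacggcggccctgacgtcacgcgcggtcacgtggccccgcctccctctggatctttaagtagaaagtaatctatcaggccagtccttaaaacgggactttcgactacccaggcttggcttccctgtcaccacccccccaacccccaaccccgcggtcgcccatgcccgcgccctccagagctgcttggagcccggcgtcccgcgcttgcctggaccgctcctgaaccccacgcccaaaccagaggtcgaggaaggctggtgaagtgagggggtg
Foxo3, chr10:42276666-42276945, minus strand: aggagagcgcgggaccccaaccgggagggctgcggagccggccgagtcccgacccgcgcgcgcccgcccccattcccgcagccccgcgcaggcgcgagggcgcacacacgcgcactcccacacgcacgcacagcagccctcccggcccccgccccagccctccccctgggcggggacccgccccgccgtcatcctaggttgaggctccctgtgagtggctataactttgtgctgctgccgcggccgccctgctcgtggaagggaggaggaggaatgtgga

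The table of RefSeq promoters held windows of 300 bases, up to 50 bases after the start, for 28 of the 45 members and for 5 of the 9 whose level changed. Each was searched on both strands for the forkhead core TGTTTAC, the TCF/LEF site CTTTGAT, the T-box site AGGTGTGA and the glucocorticoid response element (GNACA, any 3 bases, then TGTNC). Matches to different motifs did not overlap. In the Foxa2 window the capitals are CTTTGAT on the opposite strand, beginning at base 265 of the window. That motif was in 1 of the 33 windows of members and in 3.73% of all 32851 windows. The forkhead core was in 1 member window, that of Foxa1, and in 3.65% of all. The glucocorticoid response element was in 1 member window, that of Foxj2, and in 0.475% of all, and the T-box site was in 0 member windows and in 1.28% of all. The Foxd3 and Foxo3 windows held none of the 4 motifs. GC content was 53.6% in the Foxa2 stretch shown, 65.4% in that of Foxd3 and 74.6% in that of Foxo3.

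Of the 45 forkhead genes 24 had enough reads to be tested, and 9 of these changed with budesonide at an adjusted p under 0.05, 6 lower and 3 higher (edgeR quasi-likelihood test, Benjamini-Hochberg adjustment over all 17155 genes tested). Foxb1, Foxa2, Foxp4, Foxo4, Foxh1 and Foxk1 fell. Foxd3, Foxo3 and Foxp1 rose. Over all genes tested 28.7% were called, 13.5% lower and 15.2% higher, and among tested forkhead genes 25.0% were called lower and 12.5% higher. The share of higher calls among all called genes was 52.9%, and 38.6% when libraries were not scaled. The median log2 fold change was -0.19 over the 24 forkhead genes and -0.02 over all genes tested. Of the 9 calls, those of Foxa2, Foxb1, Foxd3, Foxo3, Foxo4 and Foxp4 held in all 15 alternatives run, while those of Foxh1, Foxk1 and Foxp1 did not.

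**Figure D1:**
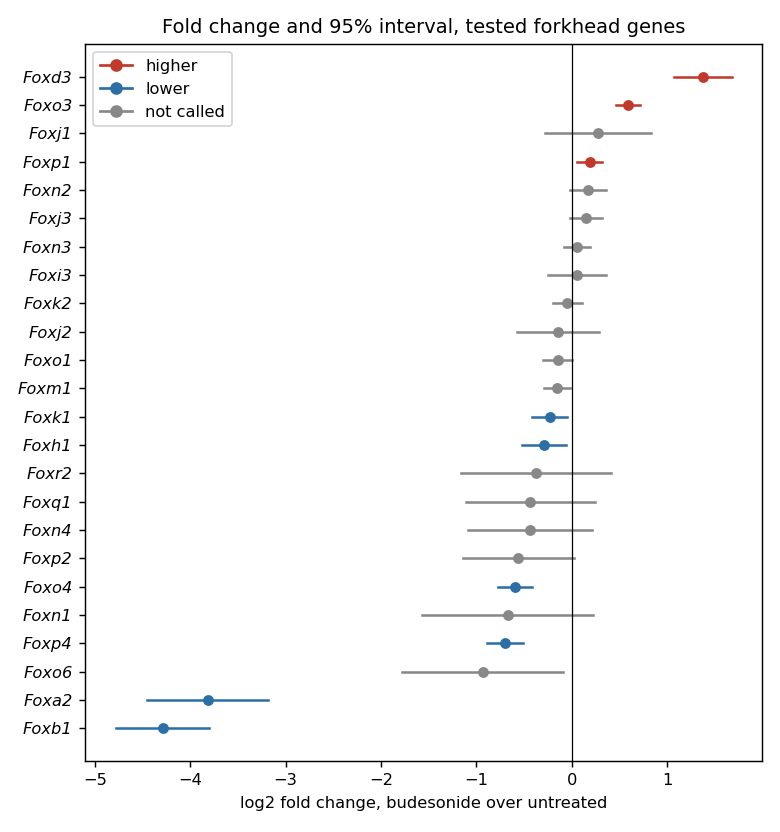
Log2 fold change (budesonide over untreated, horizontal axis) of the 24 tested forkhead genes with its 95% interval, from the highest at the top to the lowest. Points are coloured by call; Foxb1 at -4.29 and Foxa2 at -3.82 lie far below the others, and Foxd3 at 1.38 lies above them.

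Groups did not overlap in 11 of the 24 tested forkhead genes, against 39.6% of all genes tested. Over 2-fold, 3 of the 24 were called (Foxa2, Foxb1 and Foxd3), against 5.1% of all. As a family, forkhead reads made up 0.0942% to 0.0993% of all counted reads in budesonide and 0.0991% to 0.105% in untreated libraries, and these shares overlapped between groups.

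Foxb1 and Foxa2 had the largest falls. Foxb1, a gene of the early neural tube and diencephalon, had 11, 9 and 2 reads in the budesonide libraries, which are 1.55, 1.32 and 0.368 CPM. In the untreated libraries it had 173, 158 and 121 reads, or 26.4, 22.2 and 19.0 CPM. The lowest untreated library was thus far above the highest budesonide library, and the log2 fold change was -4.29 ± 0.24 (SE), 19.5-fold lower (edgeR adjusted p = 3.06e-19). Foxa2, the pioneer factor of endoderm and node, had 5, 3 and 7 reads (0.704, 0.441 and 1.29 CPM) in budesonide libraries, against 93, 78 and 54 reads (14.2, 11.0 and 8.48 CPM) in untreated libraries. Its groups did not overlap and it was 14.1-fold lower, with a log2 fold change of -3.82 ± 0.32 (SE; edgeR adjusted p = 8.48e-14). In these bulk samples fewer cells of a type and less RNA per cell cannot be told apart.

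The budesonide levels of Foxb1 and Foxa2 were as low as background. The 95th percentile of 2006 olfactory and vomeronasal receptor genes, which these cells have no known use for, was 1.55 to 2.06 CPM per budesonide library, and neither gene exceeded its own library's percentile. The sizes of these 2 falls therefore rest on few reads. Their relatives were near background in both groups. Foxa1 had 4, 7 and 0 reads in budesonide and 13, 8 and 5 in untreated libraries, Foxa3 had 3, 1 and 4 reads against 9, 3 and 7, and Foxb2 had 5, 1 and 0 against 6, 7 and 3.

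Genes of axial mesoderm and definitive endoderm, the tissues that use FOXA factors, were lower in 6 and higher in 1 of the 15 that were tested (median -0.31 on the log2 scale, and -0.66 to -0.22 over the alternatives). Over all genes 13.5% were lower and 15.2% higher. The list median was -0.66 without budesonide replicate 2, -0.50 without budesonide replicate 3 and -0.48 without untreated replicate 3. Eomes, a T-box factor of the streak, was 2.56-fold lower and the homeobox gene Mixl1 8.13-fold lower. With budesonide Mixl1 had 5, 4 and 3 reads, below the receptor percentile of each library, so the size of its fall rests on few reads. Otx2, an anterior and epiblast factor, was the member that rose, 2.27-fold. Another tissue that expresses FOXA2 is primitive and visceral endoderm. Its markers summed to 64.5 to 69.9 CPM in budesonide and 68.2 to 77.3 CPM in untreated libraries. Lama1 and Sparc, named here after their values were seen, made up most of that sum in each group. Lama1 was at 16.01 ± 0.36 CPM in budesonide and 18.75 ± 0.46 CPM in untreated libraries (SD, n = 3 each). Sparc was at 27.5 ± 0.83 CPM in budesonide and 24.5 ± 1.87 CPM in untreated libraries (SD, n = 3 each). The sum therefore mainly follows these genes and says little about the other markers. Of the 14 markers 9 were tested, and by edgeR 0 rose and 0 fell, as among the 6 that DESeq2 tested; at an unadjusted p under 0.05, 0 rose and 2 fell. None of the 14 was at 0 in all libraries, and their part in the fall of Foxa2 was not tested.

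Among neural genes listed with FOXB1, 7 of 20 were tested, 2 rose and 2 fell, beside 15.2% higher and 13.5% lower over all genes. The list median was -0.37, and -0.63 to -0.31 over the alternatives, which test 6 to 20 of the listed genes. It was -0.63 without budesonide replicate 1, 2 or 3, -0.51 without untreated replicate 1 and -0.62 without untreated replicate 2 or 3. Gbx2, of the anterior hindbrain, was 5.06-fold lower and Irx3, of the neural tube, fell by 0.68 on the log2 scale. Irx3 lost its call in DESeq2 (adjusted p = 0.175), in edgeR with all low genes kept (0.0512), and when edgeR was run without budesonide replicate 2 (0.101) or 3 (0.0856) or untreated replicate 1 (0.230) or 2 (0.0521). Pax6, an eye and neural tube factor, was 1.78-fold higher and the proneural gene Neurod1 1.72-fold higher. Markers of neurons summed to 140.1 to 147.8 CPM in budesonide and 103.0 to 108.6 CPM in untreated libraries, with 2 of 7 higher and 4 lower. Stmn2, named here after its values were seen, made up most of the sum, at 104.7 ± 5.39 CPM in budesonide and 59.1 ± 4.67 CPM in untreated libraries (SD, n = 3 each), while Dcx, Elavl3, Rbfox3 and Map2 fell. The part of neuron markers in the fall of Foxb1 was not tested.

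Foxd3 was the member with the largest rise. It had 150, 149 and 112 reads, or 21.1, 21.9 and 20.6 CPM, in the budesonide libraries, and 50, 68 and 46 reads, or 7.62, 9.56 and 7.23 CPM, in the untreated libraries. The budesonide libraries lay within 2 CPM of each other and all above the untreated ones. The log2 fold change was 1.38 ± 0.15 (SE), 2.60-fold higher (edgeR adjusted p = 2.62e-10). FOXD3 is used by pluripotent cells and by neural crest. Of the 9 pluripotency markers 8 rose and 0 fell by edgeR, the same as by DESeq2 and at an unadjusted p under 0.05. By edgeR 15.2% of all genes tested were higher and 13.5% lower. Of 7 tested neural crest genes 0 rose and 2 fell by edgeR (0 and 3 at an unadjusted p under 0.05; 0 and 1 of the 6 that DESeq2 tested). The other 5 were not called. Over all 7 tested genes the median log2 fold change was -0.68. Without budesonide replicate 2, where 8 were tested, it was -0.43. Ets1, a crest and endothelial ETS factor, was 1.99-fold lower and Sox9 2.38-fold lower. With budesonide Sox9 had 15, 10 and 3 reads, and replicates 2 and 3 lay below the receptor percentile. Sox9 lost its call in DESeq2 (adjusted p = 0.0670) and in edgeR without budesonide replicate 3 (0.0648). The part of these markers in the rise of Foxd3 was not tested.

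Foxd4, a relative of Foxd3, was too low for the test. It had 3, 6 and 12 reads in budesonide and 1, 1 and 2 in untreated libraries, so its groups did not overlap, and without a filter on low counts its log2 fold change was 2.35 ± 0.80 (SE; edgeR adjusted p = 0.0396). Only the library with 12 reads, at 2.21 CPM, exceeded the receptor percentile. Foxd1 had 7, 6 and 4 reads in budesonide and 5, 11 and 8 in untreated libraries, and Foxd2 had 2, 1 and 0 against 4, 1 and 5.

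Foxh1, the DNA-binding partner of SMAD2 and SMAD3 in NODAL signalling, stood near the threshold. It was at 27.2, 23.6 and 28.5 CPM in budesonide libraries and at 37.2, 32.1 and 27.5 CPM in untreated libraries. The highest budesonide library was above the lowest untreated library, so the groups overlapped. With a log2 fold change of -0.29 ± 0.11 (SE) the fall passed in edgeR (adjusted p = 0.0458), but not in DESeq2 (0.254), with RLE size factors (0.0521), with a filter at 1 CPM (0.0553) or with limma on the deposited normalized values (0.105). Nor did it pass without budesonide replicate 1 (0.0782) or 2 (0.248), or without untreated replicate 1 (0.344) or 2 (0.0940).

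The genes around FOXH1 in the NODAL pathway included larger falls than that of Foxh1. Of 15 tested, 8 fell and 0 rose by edgeR, beside 13.5% lower and 15.2% higher over all genes. DESeq2 called 5 lower and 0 higher of the 14 it tested. At an unadjusted p under 0.05 in edgeR, 8 fell and 2 rose. The median log2 fold change was -0.30, and -0.38 to -0.15 over the alternatives. EdgeR called 5 lower and 1 higher without untreated replicate 1, with a median of -0.15, and 7 lower and 1 higher without budesonide replicate 2. Lefty1, a NODAL antagonist and a FOXH1 target, was at 84.5 ± 3.28 CPM in budesonide and 188.9 ± 4.98 CPM in untreated libraries (SD, n = 3 each). Its relative Lefty2, named here after its values were seen, was not called (edgeR adjusted p = 0.808). It was at 28.7 ± 2.26 CPM in budesonide and 27.9 ± 4.07 CPM in untreated libraries (SD, n = 3 each). Mixl1 and Cer1 stand in this list and in that of axial mesoderm and endoderm. Like Mixl1, Cer1 was below the receptor percentile of each budesonide library, with 5, 5 and 8 reads.

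The FOXO genes did not move together. Foxo3, the most abundant forkhead gene by reads, was at 215.3, 217.2 and 227.0 CPM in budesonide libraries, against 137.5, 150.7 and 149.4 CPM in untreated libraries. All budesonide libraries were above all untreated ones, and the log2 fold change was 0.59 ± 0.06 (SE), 1.51-fold higher (edgeR adjusted p = 6.26e-11). Foxo4 was at 35.8, 34.1 and 33.1 CPM in budesonide libraries and at 51.5, 52.6 and 51.5 CPM in untreated libraries. It moved the other way by the same factor, 1.51-fold lower, with a log2 fold change of -0.59 ± 0.09 (SE; edgeR adjusted p = 6.17e-07), and its groups did not overlap either.

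Foxo1 was at 69.7, 68.6 and 71.0 CPM in budesonide libraries and at 78.7, 81.4 and 71.6 CPM in untreated libraries. The groups lay next to each other without overlap, and the difference, -0.15 ± 0.07 on the log2 scale (SE), missed the threshold (edgeR adjusted p = 0.133). It passed as lower with upper quartile scaling (0.0290) and with no scaling factors (0.0138). Foxo6, an FOXO gene mainly of the brain, had 7, 8 and 8 reads in budesonide and 21, 12 and 13 in untreated libraries (log2 fold change -0.94 ± 0.42, SE; edgeR adjusted p = 0.0919). Its opposite-strand neighbour Foxo6os had 0, 4 and 1 reads in budesonide and 2, 2 and 2 in untreated libraries. The strand setting of the counting is not given in the sources used here, so reads of such partners cannot be told apart.

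Ratios of reads between members of the same class do not depend on how libraries are scaled. There were 7 pairs of same-class members with a mean of at least 5 CPM. Foxo3 had 6.02, 6.36 and 6.86 reads for each Foxo4 read in budesonide libraries, against 2.67, 2.87 and 2.90 in untreated libraries, a ratio 2.28-fold higher. Foxo3 to Foxo1 was 3.09, 3.17 and 3.20 in budesonide and 1.75, 1.85 and 2.09 in untreated libraries, and Foxo1 to Foxo4 was 1.95, 2.01 and 2.14 against 1.53, 1.55 and 1.39. Groups did not overlap in these 3 pairs, nor in Foxp1 to Foxp4 and Foxk2 to Foxk1. For each of these 5 pairs the two-sided exact permutation test gave p = 0.1, the smallest that 3 against 3 libraries allow, and an adjusted p = 0.14 over the 7 pairs, so none could pass. Foxj3 to Foxj2 (exact p = 0.5) and Foxn3 to Foxn2 (exact p = 0.4) overlapped.

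**Figure D2:**
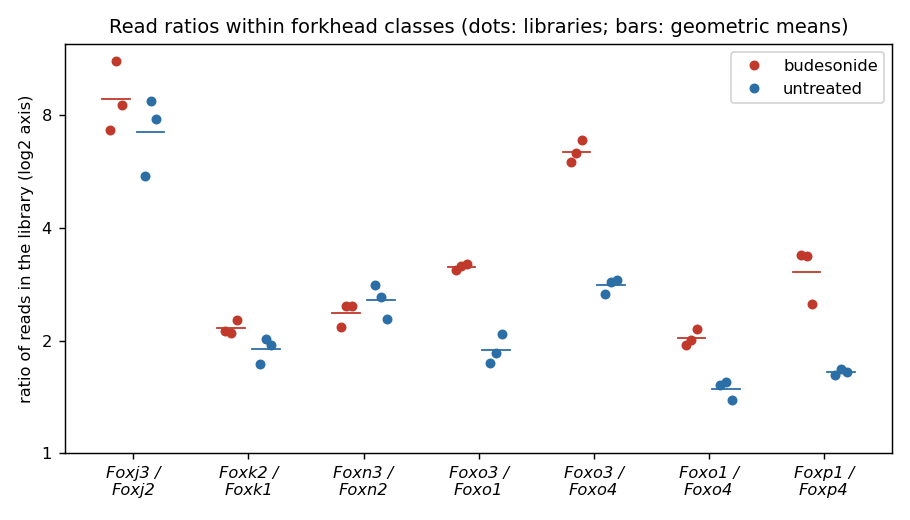
Ratio of reads of same-class forkhead genes within each library (vertical log2 axis), with dots for libraries and bars for geometric means, budesonide left of untreated in each pair. Foxo3 to Foxo4 lies between 6.02 and 6.86 in budesonide and between 2.67 and 2.90 in untreated libraries.

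Of 25 genes listed as FOXO targets, 23 were tested (median log2 fold change 0.39). Among these 13 rose and 3 fell, beside 15.2% higher and 13.5% lower over all genes. Over the alternatives 13 to 14 rose and 3 fell, with a median of 0.31 to 0.46. Txnip, which binds thioredoxin and limits glucose uptake, was 2.45-fold higher. Klf2, a Krüppel-like factor that naive stem cells also use, was 1.99-fold higher. Ccnd1, cyclin D1, was 1.64-fold lower, and Bcl2l11, the pro-apoptotic BIM, fell by 0.48 on the log2 scale. The list was written with earlier results of these data known and counts many genes that other pathways control too. It also holds genes that FOXO factors are known to repress, such as Ccnd1. Its counts and median therefore have no single FOXO direction.

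Of 20 regulators of FOXO in the PI3K and AKT pathway, all tested, 4 rose, 4 fell and 12 were not called (median -0.06), beside 15.2% higher and 13.5% lower over all genes. Under upper quartile scaling 8 fell, and with no scaling factors 9 fell and 3 rose. Akt1, the main AKT kinase, was at 25.9 ± 2.30 CPM in budesonide and 45.9 ± 2.47 CPM in untreated libraries (SD, n = 3 each). Pik3cb, a PI3K catalytic subunit, was 1.49-fold higher and Pdpk1, the kinase that activates AKT, 1.32-fold higher. These are RNA levels only, and phosphorylation or nuclear entry of FOXO proteins was not measured.

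The FOXP genes, transcriptional repressors that form dimers, also diverged. Foxp4 was at 35.1, 31.8 and 45.0 CPM in budesonide libraries and at 62.7, 58.1 and 59.7 CPM in untreated libraries. Budesonide replicate 3 was the highest of its group but below every untreated library, and the log2 fold change was -0.70 ± 0.10 (SE), 1.63-fold lower (edgeR adjusted p = 6.41e-08). Foxp1 was at 118.6, 107.1 and 112.9 CPM in budesonide and 101.4, 97.9 and 98.5 CPM in untreated libraries. Its rise was small, 0.19 ± 0.07 on the log2 scale (SE; edgeR adjusted p = 0.0303), with no overlap between groups.

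Upper quartile scaling ended the call of Foxp1 (adjusted p = 0.110), as did DESeq2 (0.0689), leaving out scaling factors (0.218) and leaving out the filter on low counts (0.217). It was also lost in edgeR without budesonide replicate 1 (0.184) or 3 (0.0527), or without untreated replicate 2 (0.114) or 3 (0.0605). Foxp1 had 3.38, 3.37 and 2.51 reads per Foxp4 read in budesonide and 1.62, 1.69 and 1.65 in untreated libraries. Foxp2, known for its role in neural circuits of vocal learning, was at 2.82 ± 0.37 CPM in budesonide and 4.19 ± 0.59 CPM in untreated libraries (SD, n = 3 each), without overlap, and did not pass (log2 fold change -0.56 ± 0.29, SE; edgeR adjusted p = 0.148). Foxp3, the master factor of regulatory T cells, had 1 to 6 reads in budesonide and 3 to 6 in untreated libraries.

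The broadly expressed FOXK genes, which repress genes of autophagy and promote glycolysis, differed little. Foxk1 was at 39.3, 36.6 and 41.9 CPM in budesonide libraries and at 48.8, 44.1 and 45.2 CPM in untreated libraries, without overlap, and its log2 fold change of -0.23 ± 0.09 (SE) passed narrowly (edgeR adjusted p = 0.0489). The call was lost in DESeq2 (0.265), with RLE size factors (0.0569), with limma (0.118), without a filter on low counts (0.0606) and with a filter at 1 CPM (0.0712). Each single library left out ended it too (budesonide replicate 1, 0.120; budesonide replicate 2, 0.229; untreated replicate 1, 0.203; untreated replicate 2, 0.0695; untreated replicate 3, 0.103), except budesonide replicate 3. Foxk2 was at 83.3, 76.7 and 95.1 CPM in budesonide and 84.8, 89.3 and 88.0 CPM in untreated libraries. Its log2 fold change was -0.05, with a 95% interval of -0.19 to 0.10 (edgeR adjusted p = 0.708).

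Foxm1, the activator of genes for mitosis, was at 96.9, 91.8 and 99.6 CPM in budesonide and 111.3, 110.8 and 98.4 CPM in untreated libraries. The groups overlapped and the difference of -0.15 ± 0.07 on the log2 scale (SE) was not called (edgeR adjusted p = 0.0904), though it passed as lower with upper quartile scaling (0.0136) and with no scaling factors (0.00625). Of 22 tested genes of the FOXM1 and G2/M list, edgeR called 8 lower and 0 higher, beside 13.5% and 15.2% over all genes. DESeq2 called 6 lower and 0 higher, and 10 fell and 1 rose in edgeR at an unadjusted p under 0.05. The median was -0.15, against -0.02 over all genes, and 13 fell with no scaling factors. Cenpa, the centromeric histone, was 1.41-fold lower and the kinesin gene Kif20a fell by 0.32 on the log2 scale. Without untreated replicate 3 edgeR called 1 gene of the list higher.

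The 7 tested members of the FOXJ and FOXN classes gave no call by edgeR, nor by DESeq2 in the 6 it tested, nor an unadjusted p under 0.05. Foxn3, a cell cycle checkpoint repressor, was at 107.4, 103.7 and 109.8 CPM in budesonide and 105.6, 103.6 and 99.8 CPM in untreated libraries, with a log2 fold change of 0.05 and a 95% interval of -0.08 to 0.19 (edgeR adjusted p = 0.611). Foxj3 was at 66.9, 62.5 and 61.2 CPM in budesonide and 57.9, 51.7 and 62.8 CPM in untreated libraries (log2 fold change 0.15 ± 0.08, SE; edgeR adjusted p = 0.179). Foxn2 was at 49.3, 41.9 and 44.3 CPM in budesonide and 37.5, 39.5 and 43.7 CPM in untreated libraries (0.17 ± 0.09, SE; edgeR adjusted p = 0.176). In all 3 genes the groups overlapped. Foxj2 ranged from 5.59 to 9.16 CPM in budesonide and from 5.91 to 10.5 CPM in untreated libraries.

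Foxj1, the master gene of motile cilia, was low, at 5.21, 4.27 and 3.86 CPM in budesonide and 2.74, 3.09 and 5.34 CPM in untreated libraries (edgeR adjusted p = 0.515). Of 18 tested motile cilium genes 2 rose and 3 fell, beside 15.2% higher and 13.5% lower over all genes. The list median was 0.06, and -0.08 to 0.14 over the alternatives. Rsph4a, of the radial spoke, was 1.74-fold higher and the ciliary regulator Rfx2 1.54-fold higher, while its relative Rfx3 was 1.65-fold lower and the dynein assembly gene Ccdc40 1.69-fold lower. Foxn1, the thymic epithelial factor, and Foxn4, of retinal and spinal progenitors, stayed under 5 CPM in every library.

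Foxi3, a factor of ectodermal placodes, was measured at 13.2, 13.5 and 11.4 CPM in budesonide and 12.7, 11.4 and 13.04 CPM in untreated libraries. Its log2 fold change was 0.05, with a 95% interval of -0.25 to 0.36 (edgeR adjusted p = 0.844). Its relatives Foxi1 and Foxi2 had at most 10 reads in any library. Foxq1, an epithelial gene, and Foxr2 were tested at means of 2.55 and 1.89 CPM, with edgeR adjusted p = 0.374 and 0.527. Of the 7 tested members with a mean below 5 CPM, 0 were called by edgeR, nor any of the 4 that DESeq2 tested, and 1 had an unadjusted p under 0.05, and their standard errors of 0.28 to 0.45 on the log2 scale are several times those of Foxo3 or Foxm1.

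**Figure D3:**
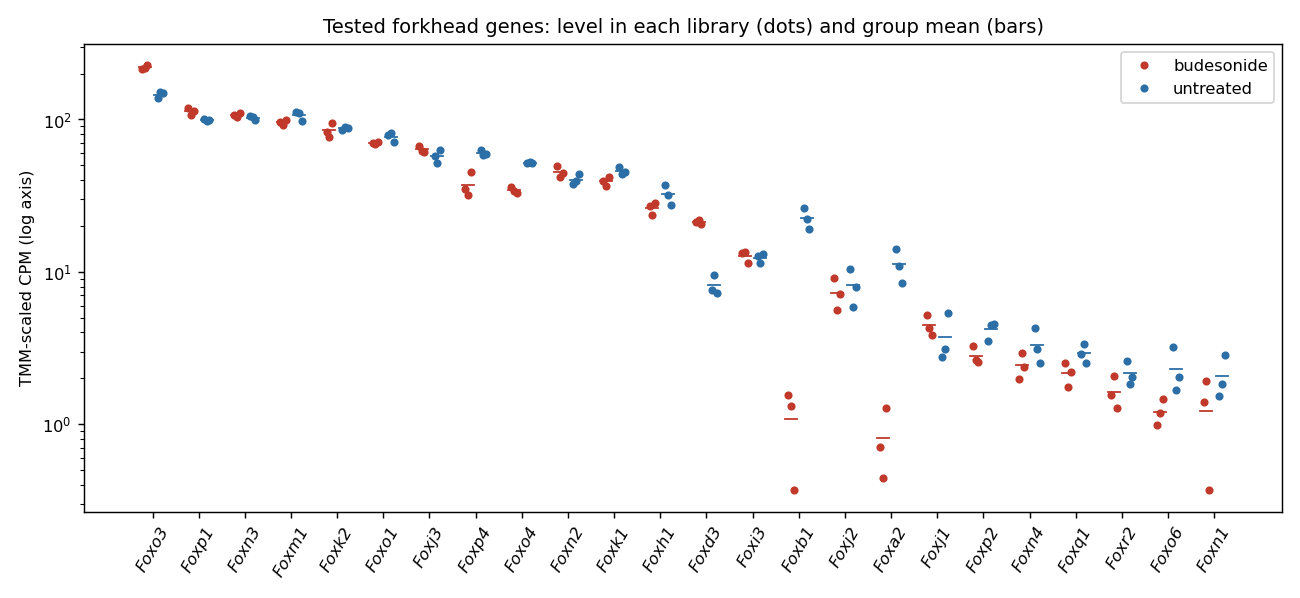
Level of each tested forkhead gene in each library (dots, TMM-scaled CPM on a log axis) with group means (bars), budesonide left of untreated, ordered by mean CPM and not corrected for gene length. Foxo3 is highest at 137.5 to 227.0 CPM, and Foxb1 and Foxa2 were at 0.368 to 1.55 CPM with budesonide.

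The remaining 21 forkhead genes had too few reads for a test, with 0 to 13 reads in any library. Together they held 81, 72 and 54 reads in budesonide and 100, 101 and 80 in untreated libraries. None was at 0 in all libraries, and 9 were at 0 in at least 1. In 19 of the 21 every library was at or below the 95th percentile of the receptor genes, Foxa1 and Foxd4 being the others. Foxe1, Foxe3, Foxl1, Foxl2, Foxl3, Foxr1 and Foxs1 had at most 9 reads in any library. Genes that mark formed mesoderm were among these low members. Foxc1, of paraxial and head mesoderm, had 7, 9 and 6 reads in budesonide and 9, 11 and 9 in untreated libraries, Foxc2 had 2, 1 and 3 against 5, 3 and 3, and Foxf1, of lateral mesoderm, had 1, 4 and 1 against 3, 4 and 5.

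Of the mesoderm genes listed with FOXC and FOXF 9 of 20 were tested, 2 rose and 1 fell. Over all genes 15.2% were higher and 13.5% lower. The list median was -0.10, and -0.20 to 0.09 over the alternatives, the last without untreated replicate 3. Dll3, a somite gene, was 4.38-fold lower, Tcf15, of early paraxial mesoderm, 1.43-fold higher and the Notch ligand gene Dll1 1.38-fold higher. In the GRCm38.p6 gene order several low members are neighbours: Foxq1, Foxf2 and Foxc1 follow each other on chromosome 13 with 0 coding genes between them, Foxd2 and Foxe3 likewise on chromosome 4, and Foxc2 and Foxl1 on chromosome 8, where 1 coding gene separates Foxc2 from Foxf1. Among these neighbours Foxq1 had enough reads for a test and the others did not. The opposite-strand gene Foxd2os had 13, 16 and 10 reads in budesonide and 12, 9 and 16 in untreated libraries.

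To compare levels between genes, CPM were divided by exon length for the 44 members with a length in GENCODE M21. In budesonide libraries Foxo3 was first at 29.0 ± 0.83 CPM per kb (SD, n = 3), followed by Foxh1 at 19.3 ± 1.88, Foxm1 at 16.7 ± 0.69 and Foxk2 at 16.2 ± 1.77 CPM per kb. In untreated libraries Foxh1 was first at 23.6 ± 3.56 CPM per kb, followed by Foxo3 at 19.3 ± 0.96, Foxm1 at 18.6 ± 1.27 and Foxk2 at 16.6 ± 0.44 CPM per kb. Foxm1 and Foxk2 did not differ beyond their spread in budesonide libraries, nor did Foxo3 and Foxm1 in untreated libraries.

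Summed over members, forkhead RNA was 173.2, 163.7 and 175.5 CPM per kb in budesonide and 192.1, 183.8 and 177.5 CPM per kb in untreated libraries, and these sums did not overlap. Foxo3 made up 17.01% ± 0.56 of the sum in budesonide and 10.5% ± 0.89 in untreated libraries. Foxd3 made up 5.35% ± 0.37 in budesonide and 1.90% ± 0.29 in untreated libraries. Foxb1 and Foxa2 made up 0.214% ± 0.125 and 0.198% ± 0.100 in budesonide, against 4.08% ± 0.51 and 2.55% ± 0.55 in untreated libraries. These shares are of a sum, so a change in Foxo3 moves the shares of all the others.

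**Figure D4:**
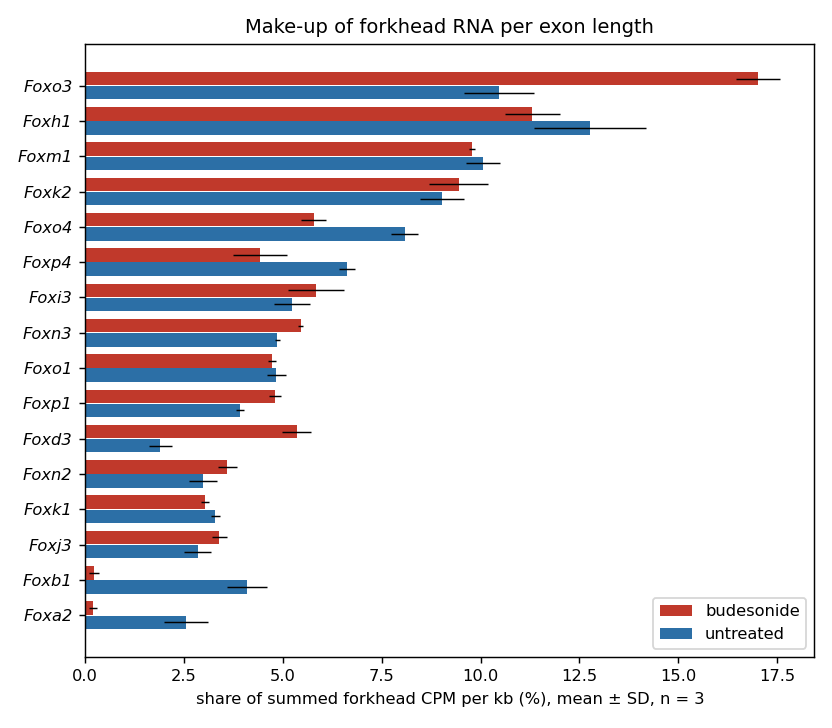
Share of the summed forkhead CPM per kb held by the 16 members with the highest mean (bars, mean; lines, SD; n = 3), budesonide above untreated. Foxo3 holds 17.01% in budesonide and 10.5% in untreated libraries, and the bars of Foxb1 and Foxa2 nearly vanish with budesonide.

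**Figure D5:**
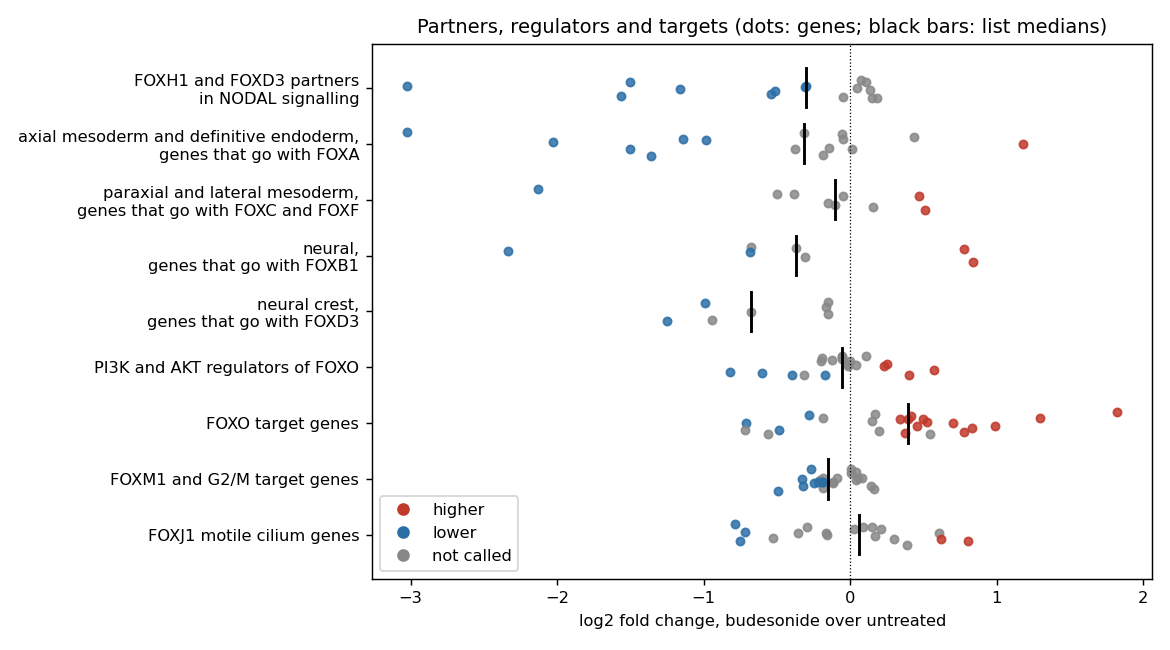
Log2 fold change (horizontal axis) of each tested gene in the lists of partners, regulators, targets and tissue genes of forkhead factors, coloured by call, with black bars for list medians. The bar of the FOXO targets stands at 0.39 and that of the PI3K and AKT regulators at -0.06.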

How the data were processed

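Stranded mRNA libraries of 3 budesonide-treated and 3 untreated E14 gastruloid samples were used. Per the submitters' processing notes, bcl2fastq, cutadapt 2.5, STAR 2.7.5c, featureCounts 2.0, DESeq2 and the build GRCm39 were used; the sources used here give no parameters, annotation or strand setting. The authors deposited raw counts per gene symbol. They also deposited a normalized signal, the count divided by a DESeq2 size factor, which matched the counts to within 0.00561 reads and holds the 33560 genes with a total over 10 reads.

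Tests used edgeR 4.0.16 in R 4.3.3: filterByExpr (minimum count 10, minimum total 15), TMM, robust dispersion, quasi-likelihood fit with group as the only term, Benjamini-Hochberg over all 17155 genes tested, threshold 0.05. EdgeR's common biological coefficient of variation, the spread between libraries of a group beyond the sampling noise of counts, was 5.73%. Fold changes compare budesonide with untreated on the log2 scale, with standard errors taken from the F statistic and 95% intervals. Libraries of the same group differed by a chi-square of 1.43 to 3.14 per gene, more than sampling noise, so none was treated as a repeat deposit of one library; this does not show that they are separate cultures. A count of 3 reads corresponds to 0.422 to 0.552 CPM. Read ratios used a two-sided exact permutation test. Exon lengths are of GENCODE M21, another build than the counts', and are found for 97.3% of tested genes.

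Members and gene lists were chosen with earlier results of these data known. Values are given for each called forkhead gene and each tested one with a mean of at least 10 CPM, ranges for the rest, and up to 2 risen and 2 fallen genes per list by smallest adjusted p; a few genes that these rules name are not reported here. Foxj1, Foxj2, Foxd4, Foxo6, Foxp2 and other low members are given to account for the family. Among all genes tested edgeR called 15.2% higher and 13.5% lower. The marker lists of trophoblast, endothelium and blood, fibroblasts and neurons gave, higher and lower by edgeR, 1 and 0, 1 and 0, 0 and 2, and 2 and 4 genes; at an unadjusted p under 0.05, 1 and 0, 1 and 1, 0 and 2, and 2 and 4; and by DESeq2 1.42.0, which tested 2, 5, 5 and 6 of them, 1 and 0, 0 and 0, 0 and 0, and 2 and 2. Alternatives were DESeq2, RLE, upper quartile or no scaling, other filters, the replicate number as a block, limma 3.58.1 on log2 of the normalized values plus 1, a threshold of 0.01 and each library left out.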

Additional observations from a re-analysis of the deposited data

How the results depend on the processing

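Counts of forkhead genes moved from 6 lower to between 4 and 8, and from 3 higher to 2 or 3, and stayed within 1.5 times in every alternative. Leaving out 1 library gave 4 to 6 lower and 2 to 3 higher forkhead genes, 1888 to 2126 lower and 2111 to 2634 higher over all genes. DESeq2 called 1318 genes lower against 2316 in edgeR; the cause was not tested. Of 224 values of 16 forkhead genes 190 kept direction and call, 26 lost a call and 4 gained one. Another 4, none of them called, changed sign: Foxi3 (-0.026) and Foxn3 (-0.026) with no scaling factors, Foxi3 and Foxk2 with 1 library left out. Over the libraries left out Foxi3 ran from -0.0028 (without untreated replicate 2) to 0.12 and Foxk2 from -0.12 to 0.038 (without budesonide replicate 2), on the log2 scale. Among 28 example genes of the lists 384 values were kept and 8, of Irx3 and Sox9, lost the call. Of 270 counts over lists 254 stayed within 1.5 times.

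Same-numbered libraries had deviations correlated at 0.04, 0.06 and -0.02, and libraries of different numbers at -0.07 to 0.03. These values do not show that the numbers pair the samples, and they cannot exclude it. With the replicate number as a block 6 forkhead genes were lower and 3 higher, and 2337 and 2649 over all genes. Members under about 5 CPM are limited by depth.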
